A study of Mus musculus with 6 samples.

Results

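The genes described here encode 8 cell-surface proteins that matrix metalloproteinase 9 (MMP-9) is reported to cut or to act through in brain: Nlgn1, Ephb2, Icam5, Dag1, Itgb1, Cd44, Sdc3 and Nectin3. They were found by symbol among the 55487 Ensembl genes of the count table, each symbol matched 1 identifier in GENCODE (GRCm38), and all 8 passed the filter on low counts that left 16119 genes. The samples were visual cortex from mice at postnatal day 28, with the strain given as B6.CBA/Tar. The mutants carried the Mmp9 UTRmut allele, in which an untranslated region of that gene is mutated, in both copies (UTRmut/UTRmut, called UTRmut) or in 1 copy (UTRmut/WT, called het), and the controls carried none (WT/WT, called WT). Each genotype had 2 libraries, replicate 1 from a female and replicate 2 from a male, so each combination of genotype and sex was 1 library. Sex cannot be told apart from anything else that the replicate number may stand for, and this holds for every comparison of females with males. The labels do not say which untranslated region was changed, whether animals were pooled, or whether libraries shared a litter. The p-values therefore measure only the spread between these libraries, part of which may be technical.

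MMP-9 is a secreted protease that neurons and glia release in response to activity, and it acts on the matrix and on adhesion proteins around synapses. Cutting of a substrate near the membrane sheds its outer part, which weakens adhesion or frees a signalling fragment. Neuroligin-1, EphB2 and ICAM-5 sit on the postsynaptic side. Dystroglycan, β1 integrin, CD44 and syndecan-3 are receptors for the matrix, and nectin-3 joins cells at adherens junctions. Read counts measure the transcripts of these proteins and not their cutting.

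The libraries held 9500090 to 11966579 counts, and 23353 to 23845 genes had at least 1 count. Mmp9 itself was scarce, with 8 and 16 counts in UTRmut, 9 and 9 in het, and 4 and 9 in WT. The log2 fold of Mmp9 was 0.86 (SE 0.58) in UTRmut against WT, which did not pass (adjusted p of 0.999 in edgeR, by Benjamini-Hochberg). The tissue label stood beside high levels of its markers: 5 genes of cortical excitatory neurons summed to 2791 to 3275 CPM (counts scaled to a common library size) per library. Markers of neighbouring tissue were low but uneven. The 4 choroid plexus genes summed to 2.71 and 10.1 CPM in UTRmut, 4.48 and 6.26 CPM in het, and 3.66 and 48.5 CPM in WT, and the 6 meningeal fibroblast genes to 61.1 and 54.1 CPM in UTRmut, 54.3 and 74.9 CPM in het, and 43.0 and 91.7 CPM in WT. The WT male thus had the highest sum of both lists, mostly from Ttr (42.1 CPM), Col1a1 (32.6 CPM) and Col1a2 (41.1 CPM). Folr1 and Kl were also highest there. Kcnj13 of the choroid plexus list and Dcn, Lum, Slc22a6 and Aldh1a2 of the meningeal list were highest in the het male. The WT male was also the highest of the 6 libraries for Dag1, Sdc3 and Ephb2, and the part of such tissue in those levels was not tested. The 5 haemoglobin and other red blood cell genes summed to 150 and 96.8 CPM in UTRmut, 168 and 176 CPM in het, and 179 and 232 CPM in WT, and their part in the results was not tested. The 4 hippocampus genes summed to 46.9 to 62.0 CPM and the 5 striatum and thalamus genes to 50.6 to 70.8 CPM per library. Of the hippocampus list C1ql2 had 2.15 and 3.13 CPM in UTRmut, 6.14 and 5.32 in het, and 4.53 and 7.51 in WT. The other 2 tested genes of that list had a positive log2 fold in UTRmut against WT, and 0 passed. The part of such tissue was not tested either.

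None of the 8 substrate genes passed the test in a comparison between genotypes, which with 2 libraries each does not show that their levels were the same. Sdc3 came nearest in het against WT, with a log2 fold of -0.24 (95% interval -0.43 to -0.05). Of the 16119 genes tested 0.0062% passed in UTRmut against WT, 0.0124% in het against WT and 0.0124% in UTRmut against het, at an adjusted p under 0.05 (edgeR quasi-likelihood test, Benjamini-Hochberg). For the members the adjusted p was 0.999 in the first, 0.9998 in the second and 0.9999 in the third comparison. DESeq2 also called 0 of them. In the change per mutant allele 0 members passed, as did 0 genes of the whole table (adjusted p of the members 0.998), with 503 genes at an unadjusted p under 0.05, or 3.12% of those tested, and 4 genes called by DESeq2. The comparisons with WT share the WT libraries, and UTRmut against het shares libraries with each of them. Their values are therefore given side by side and are not independent of each other. Of all genes tested 47.9% had a positive log2 fold in UTRmut against WT, 48.9% in het against WT and 49.7% in UTRmut against het.

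In UTRmut against WT 4 members had a positive and 4 a negative log2 fold, with a median of -0.01, and the median over all genes tested was -0.01 as well. In het against WT 3 were positive and 5 negative, with a median of -0.04 against 0.00 over all genes. At an unadjusted p under 0.05 there were 0 members in UTRmut against WT, where 2.71% of genes tested had such a p, 1 member (Sdc3) in het against WT (2.37%) and 0 in UTRmut against het (2.8%). The UTRmut and WT libraries did not overlap in 4 of 8 members, against 28.6% of all genes tested. Nlgn1 and Itgb1 lay higher in UTRmut there, and Sdc3 and Ephb2 lower. Het and WT libraries did not overlap in 1 of 8 members, Sdc3, against 27.1% of all genes tested. UTRmut and het libraries did not overlap in 4 of 8, with Nlgn1, Sdc3 and Nectin3 higher and Ephb2 lower in UTRmut, against 34.3% of all genes.

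**Figure D1:**
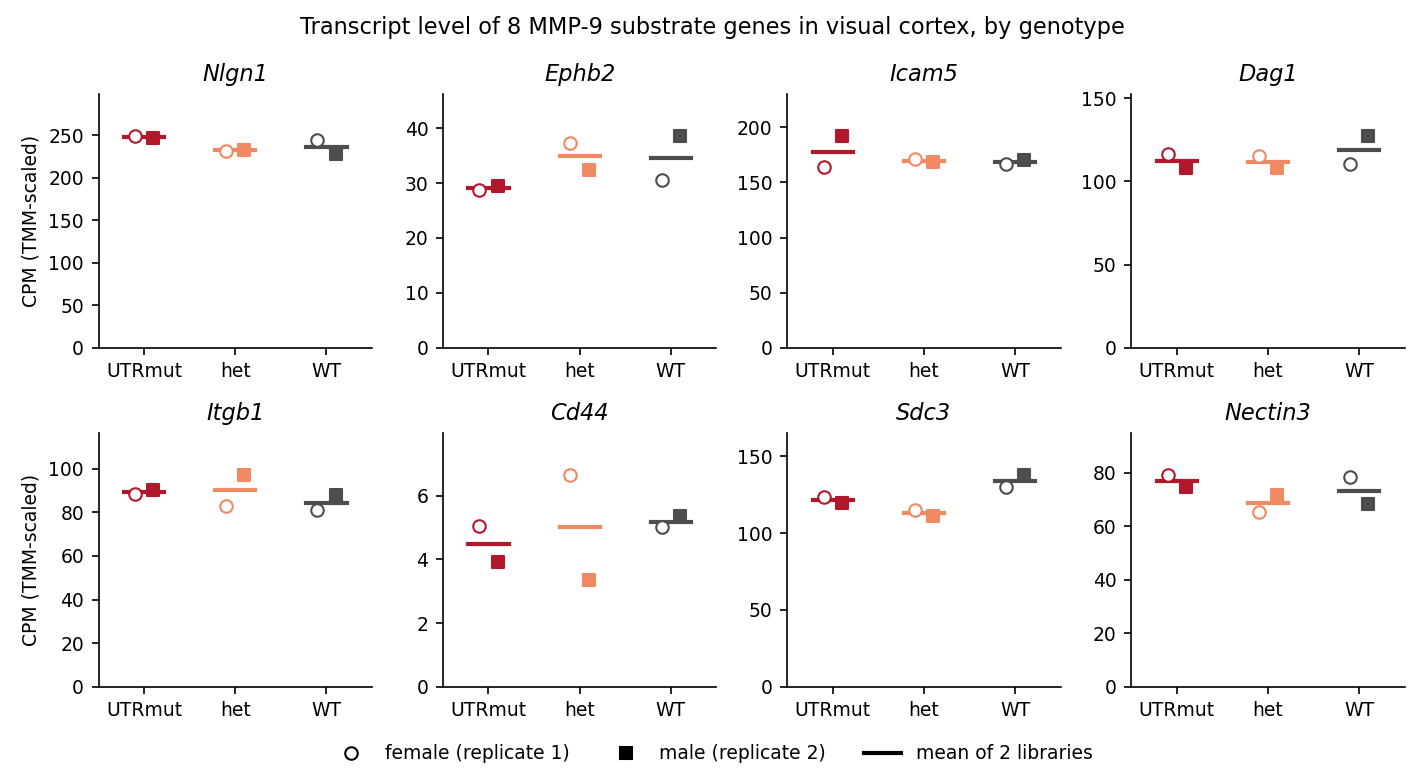
CPM (scaled by trimmed mean of M-values, linear axis from 0) of the 8 genes in UTRmut, het and WT cortex; open circles are females, filled squares males, and bars the mean of 2 libraries. Sdc3 lies lowest in het (115 and 111 CPM) and highest in WT (130.2 and 138 CPM), while both the highest and the lowest library of Cd44 are het.

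Relative to each other the 8 transcripts spanned an 80.9-fold range when CPM was divided by the length of annotated exon in kilobases. Icam5 led with 58.4 ± 3.47 CPM per kb (SD, n = 6 libraries), which placed it at the 96.8th percentile of the genes tested. Itgb1 (21.6 ± 1.39), Sdc3 (20.5 ± 1.63), Dag1 (17.98 ± 1.16) and Nlgn1 (17.8 ± 0.656 CPM per kb) followed, and neighbours in this part of the order overlapped between libraries and were not told apart. Nectin3 had 5.73 ± 0.431, Ephb2 2.60 ± 0.333 and Cd44 0.722 ± 0.171 CPM per kb, each below every library of the gene before it. The percentiles of these last 3 were 57.2, 38.1 and 14.1. The exon length, from 2.95 kb in Icam5 to 13.42 kb in Nlgn1, joins the exons of every annotated isoform, so it can exceed that of the isoforms in use.

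**Figure D2:**
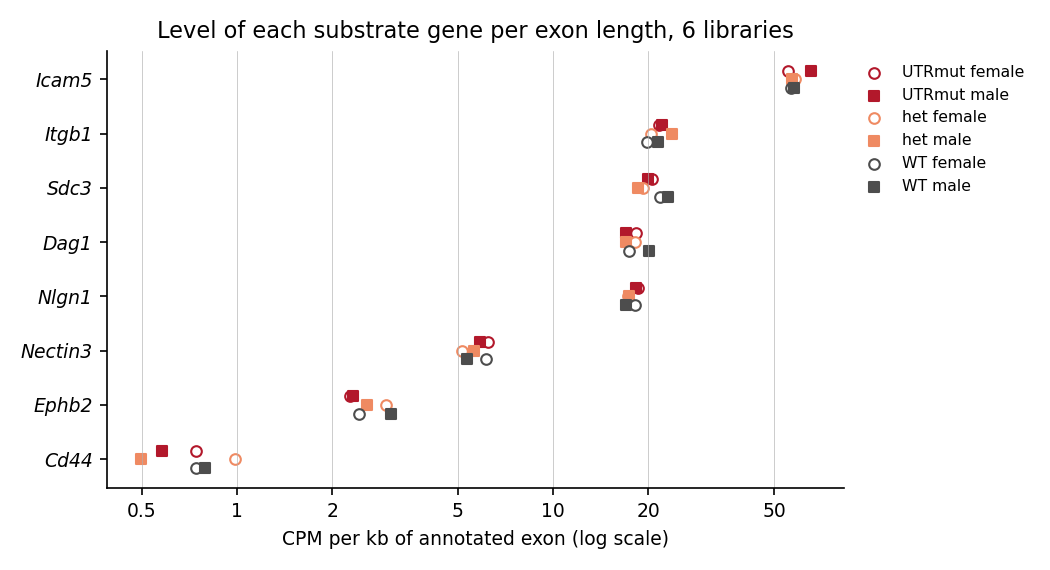
CPM per kb of annotated exon (log axis) of each gene in each of the 6 libraries, with genes in the order of their mean. Icam5 stands above the rest at 55.5 to 65.3 CPM per kb, Itgb1, Sdc3, Dag1 and Nlgn1 lie together, and Cd44 is the lowest at 0.496 to 0.983 CPM per kb.

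Nlgn1 (ENSMUSG00000063887) encodes neuroligin-1, the postsynaptic partner of presynaptic neurexins at excitatory synapses. The gene lies on chromosome 3 (25426215 to 26332460, minus strand) and spans 906.2 kb, the longest of the 8. It had 249 and 246 CPM in UTRmut, 231 and 233 CPM in het, and 244 and 228 CPM in WT. The UTRmut pair lay above all 4 other libraries, by less than the gap between the WT libraries. The log2 fold was 0.07 (SE 0.08; 95% interval -0.11 to 0.25) in UTRmut against WT, -0.02 (SE 0.08) in het against WT and 0.09 (SE 0.08) in UTRmut against het. Nlgn1 was the steadiest member, with a coefficient of variation over the 6 libraries of 3.69%, against 1.98% from counting alone. Per kb it made up 33.4% ± 2.56 (SD, n = 6) of the 3 neuroligins measured, behind Nlgn2, the neuroligin of inhibitory synapses, with 49.8% ± 2.89, and ahead of Nlgn3 with 16.8% ± 0.898. Before division by exon length Nlgn1 led, with 15376 counts over the 6 libraries against 9970 for Nlgn2 and 5379 for Nlgn3. The order of Nlgn1 and Nlgn2 thus depends on the exon length, which joins every annotated isoform. The share of Nlgn1 was 34.3% ± 1.85 in UTRmut, 34.5% ± 3.08 in het and 31.3% ± 2.66 in WT (SD, n = 2 each). A sense-intronic gene within Nlgn1, Gm37573, had 634 counts in all, or 4.12% of those of Nlgn1, and the antisense A830092H15Rik had 1.21%. The strand setting of the counting is not given, so reads of such overlapping pairs may not be fully separated.

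Of 16 neurexins, LRRTMs, cerebellins and other partners of neuroligins, all tested, 0 passed in any genotype comparison. For UTRmut against WT, 6 had a positive and 10 a negative log2 fold (median -0.04). The smallest unadjusted p values were those of the cerebellins Cbln1 and Cbln2, secreted bridges between neurexins and postsynaptic receptors. Cbln1 had 4.25 ± 0.998 CPM in UTRmut, 4.89 ± 0.444 in het and 6.08 ± 0.557 in WT (SD, n = 2 each; log2 fold in UTRmut against WT -0.51, SE 0.27), and Cbln2 had 67.8 ± 4.14, 64.7 ± 0.763 and 59.4 ± 13.1 CPM (log2 fold 0.19, SE 0.13).

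Ephb2 (ENSMUSG00000028664) encodes a receptor tyrosine kinase that ephrin-B ligands activate across the synapse and that binds NMDA receptors. It lies on chromosome 4 (136647539 to 136835988, minus strand). Ephb2 had 28.7 and 29.4 CPM in UTRmut, 37.4 and 32.4 CPM in het, and 30.6 and 38.6 CPM in WT. Both UTRmut libraries were below all 4 others, the WT female by a small step. In the fit the log2 fold was -0.25 (SE 0.14; 95% interval -0.54 to 0.04) in UTRmut against WT, -0.26 (SE 0.14; -0.56 to 0.03) in UTRmut against het, and 0.01 (SE 0.13; -0.28 to 0.30) in het against WT. Between UTRmut and WT, Ephb2 had the smallest unadjusted p of the 8 members (rank 864 of 16119 genes), and its interval reached from a fold of 0.685 to 1.03. The value rested on the WT male: without that library it was -0.07, and without the WT female -0.41.

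Among the 5 EphB receptors measured Ephb2 made up 4.42% ± 0.519 of the level per kb (SD, n = 6). Ephb6, whose kinase domain is inactive, made up 74.9% ± 1.06, Ephb3 10.7% ± 0.966, Ephb1 8.84% ± 0.846 and Ephb4 1.15% ± 0.158. Before division by exon length the counts over the 6 libraries lay closer for some of these. Ephb2 had 2115, Ephb1 2343, Ephb3 2687, Ephb4 203 and Ephb6 10734. The list of EphB receptors, ephrin-B ligands and signalling partners had 13 genes, all tested, and 0 passed between genotypes. In UTRmut against WT 5 were positive and 8 negative (median -0.06). Kalrn, a guanine nucleotide exchange factor of dendritic spines, had 1163 ± 2.25 CPM in UTRmut, 1156 ± 1.88 in het and 1262 ± 52.9 in WT (SD, n = 2 each; log2 fold in UTRmut against WT -0.12, SE 0.07). Ephb3 had 43.1 ± 1.29, 43.9 ± 0.436 and 37.9 ± 5.48 CPM (log2 fold 0.18, SE 0.12).

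Over the 6 libraries the genes whose log2 CPM was most like that of Ephb2 were Ripor2, Nufip2 and Fam118b, with Pearson's r of 0.98, 0.98 and 0.97. Ripor2 had a mean of 86.4 CPM in UTRmut, 98.0 in het and 95.7 in WT. This is a description over the same 6 libraries, in which 84 genes reached an r above 0.9 with Ephb2.

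Icam5 (ENSMUSG00000032174) encodes telencephalin, an adhesion molecule of forebrain neurons that lines dendrites and filopodia and delays their change into spines until it is cut. It lies on chromosome 9 (21032073 to 21039036, plus strand) and is the shortest of the 8 genes, at 7.0 kb. Icam5 had 164 and 192 CPM in UTRmut, 172 and 168 CPM in het, and 167 and 170.2 CPM in WT. The UTRmut male was above the other 5 libraries and the UTRmut female below them, so the UTRmut range enclosed the WT and het ranges. The log2 fold was 0.08 (SE 0.09; 95% interval -0.13 to 0.28) in UTRmut against WT, 0.01 (SE 0.09; -0.19 to 0.21) in het against WT and 0.07 (SE 0.09) in UTRmut against het. Without the UTRmut male the first of these was -0.04, and without the UTRmut female 0.19.

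Icam5 accounted for 97.9% ± 0.3902 of the level per kb of the 4 ICAMs measured, and Icam1, Icam2 and Icam4 for at most 1.26% each in every library. The antisense genes Gm26592 and Gm47079 had 45 and 59 counts in all, 0.405% and 0.531% of those of Icam5. Of 12 ICAMs, leukocyte integrins and ERM proteins, which tie membrane proteins to actin, 10 were tested and 0 passed between genotypes, with 5 positive and 5 negative in UTRmut against WT (median -0.02), 9 positive and 1 negative in het against WT (median 0.18), and 2 positive and 8 negative in UTRmut against het (median -0.17). Vtn, the matrix protein vitronectin and a ligand of ICAM-5, had 36.1 ± 9.06 CPM in UTRmut, 43.5 ± 6.21 in het and 28.5 ± 0.614 in WT (SD, n = 2 each; log2 fold in UTRmut against WT 0.34, SE 0.17), and in het against WT it had the smallest unadjusted p of the list, 0.00348 in edgeR (adjusted p 0.9998). Ezr, the linker ezrin, had 67.4 ± 0.461, 68.4 ± 0.271 and 61.1 ± 13.2 CPM (log2 fold 0.14, SE 0.13).

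**Figure D3:**
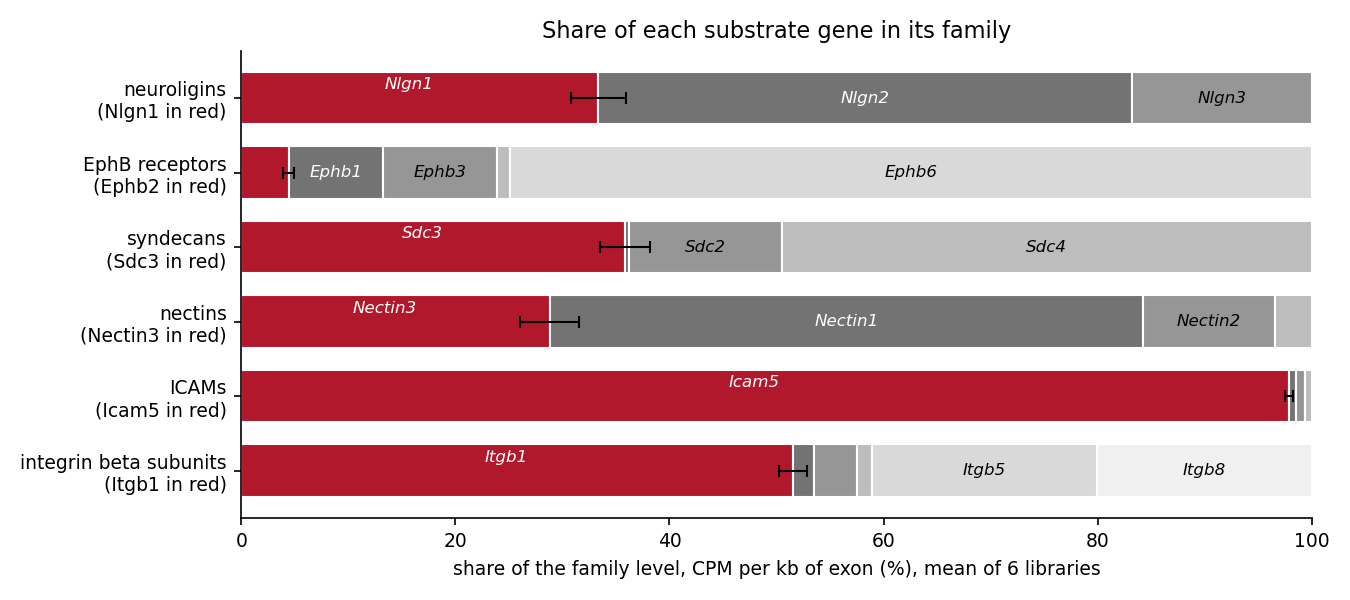
Share of the summed level of each gene family (CPM per kb of exon, mean of 6 libraries, in %), with the MMP-9 substrate in red and its relatives in grey; error bars are the SD of the red share over 6 libraries. Icam5 fills 97.9% of the ICAMs and Itgb1 51.6% of the β integrins, while Ephb2 makes up 4.42% of the EphB receptors. The shares depend on exon lengths that join every annotated isoform, and in some families the order of the counts differs.

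Dag1 (ENSMUSG00000039952) encodes dystroglycan, whose α and β chains link laminin and agrin outside the cell to dystrophin inside it, at glial endfeet and at inhibitory synapses. It lies on chromosome 9 (108204634 to 108263958, minus strand). Dag1 had 116 and 108 CPM in UTRmut, 115 and 108 CPM in het, and 110.4 and 127 CPM in WT. The WT male was above all other libraries, and the WT female fell among the mutants. In the fit the log2 fold was -0.09 (SE 0.10; 95% interval -0.30 to 0.12) in UTRmut against WT, -0.09 (SE 0.10; -0.30 to 0.12) in het against WT and 0.00 (SE 0.10; -0.21 to 0.21) in UTRmut against het. Without the WT male the folds against WT were 0.03 in UTRmut and 0.02 in het.

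Dag1 was the member whose change per allele came nearest to a difference between the sexes. The log2 CPM of UTRmut minus that of WT was 0.08 in the female libraries and -0.24 in the males, so the difference had opposite signs and was the larger in size in males. The signed change per allele in females minus that in males was 0.16 (SE 0.07), short of the threshold (adjusted p of 0.341 in edgeR, by Benjamini-Hochberg). In that test 1.2% of all genes passed and 13.6% had an unadjusted p under 0.05, as 1 of 8 members did, and 0 members passed.

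Of the 21 genes of the dystrophin complex, of dystroglycan glycosylation and of its ligands, 20 were tested and 0 passed between genotypes, with 8 positive and 12 negative in UTRmut against WT (median -0.04). Sntb2, the adaptor β2-syntrophin, had 71.0 ± 0.598 CPM in UTRmut, 68.9 ± 3.25 in het and 60.6 ± 4.28 in WT (SD, n = 2 each; log2 fold in UTRmut against WT 0.23, SE 0.10). Dtna, α-dystrobrevin, had 205 ± 4.60, 205 ± 4.96 and 188 ± 10.3 CPM (log2 fold 0.13, SE 0.09). Hspg2, which encodes the basement membrane proteoglycan perlecan, a ligand of dystroglycan, passed in the difference between the sexes. It had 10.1 CPM in the UTRmut female and 4.70 in the UTRmut male, 6.56 and 7.66 CPM in the het female and male, and 6.37 and 11.5 CPM in the WT female and male. It was thus higher in UTRmut than in WT among females and lower among males. The signed log2 change per allele in females minus that in males was 0.98 (SE 0.19; edgeR, Benjamini-Hochberg adjusted p = 0.0177, but 0.0698 to 0.590 without any 1 of the UTRmut or WT libraries). DESeq2 gave no adjusted p for Hspg2 in this comparison. Hspg2 was highest in the WT male, the library with the highest meningeal and choroid plexus sums, whose part in this value was not tested.

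Itgb1 (ENSMUSG00000025809) encodes the β1 chain shared by a large group of integrins, through which cells bind collagens, laminins and fibronectin and through which effects of MMP-9 on spines are reported to run. It lies on chromosome 8 (128685654 to 128733200, plus strand). Itgb1 had 88.4 and 90.1 CPM in UTRmut, 83.2 and 97.2 CPM in het, and 81.1 and 87.9 CPM in WT. The UTRmut pair lay just above the WT pair, and the het libraries enclosed the UTRmut pair. The log2 fold was 0.08 (SE 0.10; 95% interval -0.14 to 0.29) in UTRmut against WT, 0.09 (SE 0.10; -0.12 to 0.31) in het against WT and -0.02 (SE 0.10; -0.23 to 0.20) in UTRmut against het. Within each genotype the male library was the higher, and females against males gave -0.12 (SE 0.08; edgeR, Benjamini-Hochberg adjusted p = 0.805).

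Itgb1 supplied 51.6% ± 1.30 of the level per kb of 6 β integrins measured, at 51.8% ± 2.07 in UTRmut, 51.6% ± 0.885 in het and 51.3% ± 1.76 in WT. Itgb5 followed with 21.0% ± 1.32 and Itgb8, a β chain that pairs with αv, with 20.1% ± 2.004, and Itgb3, Itgb4 and the leukocyte chain Itgb2 shared the rest. Before division by exon length Itgb8 led, with 5971 counts over the 6 libraries against 5681 for Itgb1 and 2014 for Itgb5. Of 22 integrin chains and adaptors 21 were tested and 0 passed between genotypes, with 10 positive and 11 negative in UTRmut against WT (median -0.02), 15 positive and 6 negative in het against WT (median 0.11), and 7 positive and 14 negative in UTRmut against het (median -0.10). The 2 smallest p values in UTRmut against WT belonged to α chains that pair with β1. Itga4 had 33.3 ± 1.66 CPM in UTRmut, 27.5 ± 2.56 in het and 40.0 ± 3.37 in WT (SD, n = 2 each; log2 fold in UTRmut against WT -0.26, SE 0.12), and in het against WT its unadjusted p was the smallest of the list, 0.000722 in edgeR (adjusted p 0.9998). Itga1, a collagen receptor chain, had 6.15 ± 0.944, 7.95 ± 0.645 and 8.32 ± 0.447 CPM (log2 fold -0.44, SE 0.22).

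Cd44 (ENSMUSG00000005087) encodes the main receptor for hyaluronan, which also docks MMP-9 at the cell surface and is cut in turn. It shares chromosome 2 with Mmp9, 62.0 Mb away (102811141 to 102901665, minus strand). Cd44 had 54 and 45 counts in UTRmut, 64 and 36 in het, and 52 and 62 in WT. In CPM these were 5.04 and 3.92 in UTRmut, 6.66 and 3.36 in het, and 5.01 and 5.35 in WT. The het female was the highest and the het male the lowest of the 6 libraries, so the groups overlapped in every comparison. In the fit the log2 fold was -0.21 (SE 0.32; 95% interval -0.90 to 0.47) in UTRmut against WT, -0.06 (SE 0.32; -0.74 to 0.62) in het against WT and -0.15 (SE 0.32; -0.85 to 0.54) in UTRmut against het.

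Its coefficient of variation was 23.6%, against 13.8% from counting alone, and the interval in UTRmut against WT took in folds from 0.537 to 1.39. Changes within that range could not be told from none in these libraries. Females against males gave 0.40 (SE 0.24; edgeR, Benjamini-Hochberg adjusted p = 0.792), with 5.57 ± 0.943 CPM in females and 4.21 ± 1.03 CPM in males (SD, n = 3 each). The summed astrocyte markers were 1635 and 1715 CPM in UTRmut, 1599 and 1710 CPM in het, and 1444 and 1611 CPM in WT. The sum was higher in the male of each genotype, as were Slc1a3, Aldoc and Gja1. The other genes of that list did not follow this. Aqp4 (86.5 against 71.0 CPM) and Aldh1l1 (64.2 against 58.8 CPM) were higher in the UTRmut female than in the male. Gfap was higher in the het female (108.9 against 91.0 CPM). The summed microglial markers were 196 to 235 CPM over the 6 libraries. Fewer cells of a type and less RNA per cell cannot be told apart in such bulk samples.

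On the hyaluronan side 12 of 14 genes were tested and 0 passed between genotypes, with 4 positive and 8 negative in UTRmut against WT (median -0.12). Hmmr, a hyaluronan receptor tied to cell division, and Hapln2, a link protein of nodes of Ranvier, were both low, at 0.725 ± 0.164 and 1.26 ± 0.192 CPM in UTRmut, 0.889 ± 0.0680 and 1.55 ± 0.746 in het, and 1.21 ± 0.610 and 1.88 ± 0.211 in WT (SD, n = 2 each). Their log2 folds in UTRmut against WT were -0.72 (SE 0.55) and -0.57 (SE 0.45). Hapln4, a link protein of perineuronal nets, passed in the difference between the sexes. It had 35.4 CPM in the UTRmut female and 27.6 in the UTRmut male, 30.5 and 27.7 CPM in the het female and male, and 26.2 and 40.9 CPM in the WT female and male. Here too UTRmut was above WT among females and below it among males. The signed log2 change per allele in females minus that in males was 0.50 (SE 0.11; edgeR, Benjamini-Hochberg adjusted p = 0.0357, but 0.389 to 0.893 without the UTRmut female, the WT female or the WT male), and it was not called by DESeq2 (adjusted p = 0.248) or by edgeR without the robust option (adjusted p = 0.0706).

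Sdc3 (ENSMUSG00000025743) encodes syndecan-3, the syndecan typical of neurons, a heparan sulfate proteoglycan that binds pleiotrophin and whose outer part is shed. It lies on chromosome 4 (130792537 to 130826319, plus strand). Sdc3 had 123 and 119.7 CPM in UTRmut, 115 and 111 CPM in het, and 130.2 and 138 CPM in WT. All 4 libraries with a mutant allele were below both WT libraries, and both het libraries lay below both UTRmut libraries. The fitted log2 change per allele was -0.07 (95% interval -0.17 to 0.03), so a trend with allele number was neither shown nor excluded. The log2 fold was -0.24 (SE 0.09; 95% interval -0.43 to -0.05) in het against WT, -0.14 (SE 0.09; -0.33 to 0.05) in UTRmut against WT and 0.10 (SE 0.09; -0.09 to 0.29) in UTRmut against het. In het against WT the unadjusted p was 0.0156 in edgeR, rank 74 of 16119 genes, and the adjusted p 0.9998.

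Sdc3 was the 1 member of 8 in which the range of the 3 genotype means (0.24 on the log2 scale) was wider than the largest gap between replicates of a genotype (0.08). Of all genes tested 21.1% had such a pattern. With each library left out the log2 fold of Sdc3 was -0.29 to -0.20 in het against WT and -0.18 to -0.09 in UTRmut against WT. Because the groups did not overlap in these comparisons, leaving out 1 library says little about the sign.

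Per kb Sdc3 made up 35.9% ± 2.35 of the 4 syndecans (SD, n = 6), behind Sdc4 with 49.5% ± 1.76 and ahead of Sdc2 with 14.2% ± 1.08, and of Sdc1 with 0.410% ± 0.201 (59 counts over the 6 libraries). Before division by exon length Sdc3 was ahead of Sdc4, with 7945 against 4682 counts. The share of Sdc3 per kb was 35.0% ± 0.374 in UTRmut, 34.6% ± 3.06 in het and 37.9% ± 2.22 in WT (SD, n = 2 each). Of 16 syndecans, glypicans and heparan sulfate genes 15 were tested and 0 passed between genotypes, with 7 positive and 8 negative in UTRmut against WT (median 0.00). Sdcbp, syntenin, which binds the tail of syndecans, had 150.4 ± 1.35 CPM in UTRmut, 137 ± 5.10 in het and 129 ± 13.3 in WT (log2 fold in UTRmut against WT 0.22, SE 0.09). Ptn, the ligand pleiotrophin, had 275 ± 3.86, 240.3 ± 29.9 and 231 ± 32.3 CPM (log2 fold 0.26, SE 0.11), and neither passed.

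Nectin3 (ENSMUSG00000022656) encodes an immunoglobulin-like protein that binds nectin-1 across adherens junctions next to synapses, and its cutting by MMP-9 has been reported in hippocampus of stressed rats. It lies on chromosome 16 (46387706 to 46498525, minus strand). Nectin3 had 79.2 and 74.8 CPM in UTRmut, 65.5 and 71.8 CPM in het, and 78.3 and 68.2 CPM in WT. The UTRmut pair lay above the het pair, and the WT libraries spread across both. In the fit the log2 fold was 0.07 (SE 0.10; 95% interval -0.15 to 0.29) in UTRmut against WT, -0.09 (SE 0.10; -0.31 to 0.13) in het against WT and 0.16 (SE 0.10; -0.06 to 0.39) in UTRmut against het. Without the WT male the first was -0.02.

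Nectin3 made up 28.8% ± 2.74 of the level per kb of the 4 nectins (SD, n = 6), behind its partner Nectin1 with 55.4% ± 3.65. Nectin2 and Nectin4 made up 12.4% ± 1.74 and 3.41% ± 0.861. Before division by exon length Nectin3 was ahead of Nectin1, with 4708 against 4025 counts over the 6 libraries. The list of nectins, nectin-like molecules and junction partners had 10 genes, all tested, of which 5 were positive and 5 negative in UTRmut against WT (median 0.01), and 0 passed between genotypes. Nectin4 had 2.54 ± 0.509 CPM in UTRmut, 3.15 ± 0.102 in het and 1.93 ± 0.537 in WT (SD, n = 2 each; log2 fold in UTRmut against WT 0.39, SE 0.37), and Ctnnb1, β-catenin, had 536 ± 44.5, 541 ± 11.6 and 504 ± 25.9 CPM (log2 fold 0.09, SE 0.09).

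**Figure D4:**
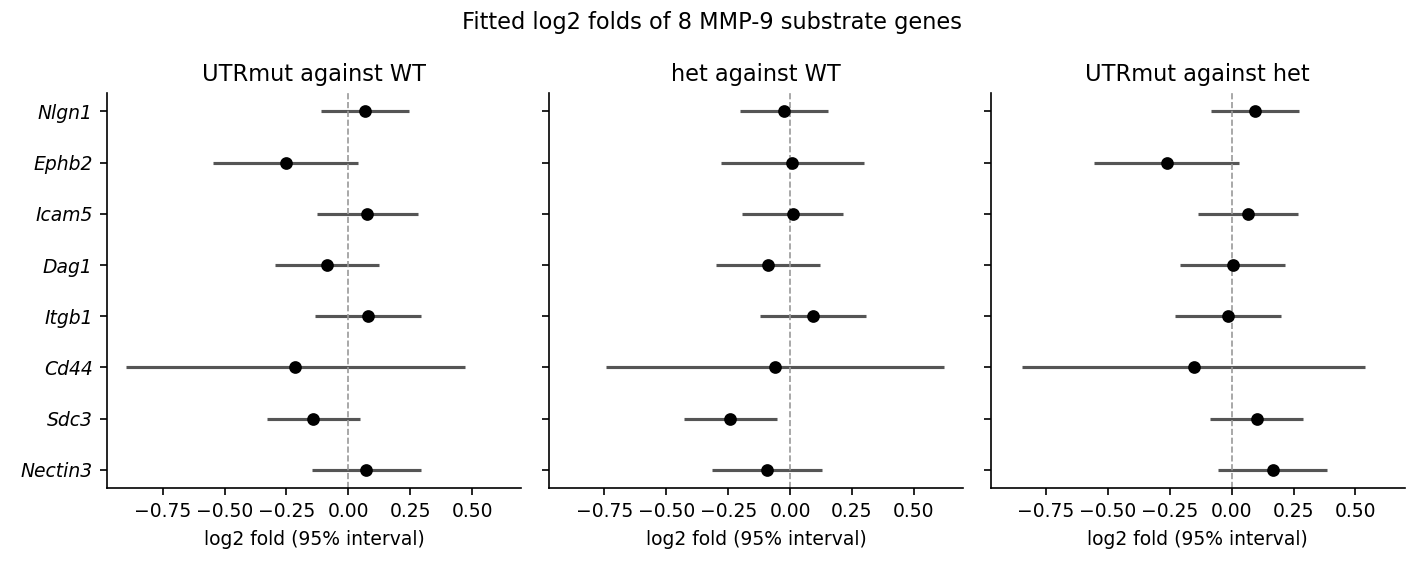
Log2 folds of the 8 genes (points) with 95% intervals (lines) for the 3 comparisons between genotypes, from the edgeR fits over 6 libraries. Of the 24 intervals 1 leaves out zero, that of Sdc3 in het against WT (-0.43 to -0.05), and the interval of Cd44 is the widest in each panel. The intervals are not adjusted for the number of genes. In het against WT 2.37% of all genes tested had an unadjusted p under 0.05 in edgeR, and Sdc3 did not pass after adjustment.

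The intervals bound what these libraries allow. For Nlgn1, Icam5, Dag1, Itgb1, Sdc3 and Nectin3 the 95% intervals in UTRmut against WT lay between folds of 0.796 and 1.23. Those of Ephb2 and Cd44 were wider, at 0.685 to 1.03 and 0.537 to 1.39. The coefficient of variation over the 6 libraries was 3.69% to 7.95% for those first 6 genes and 12.8% for Ephb2, and in each member it was above that of counting alone.

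**Figure D5:**
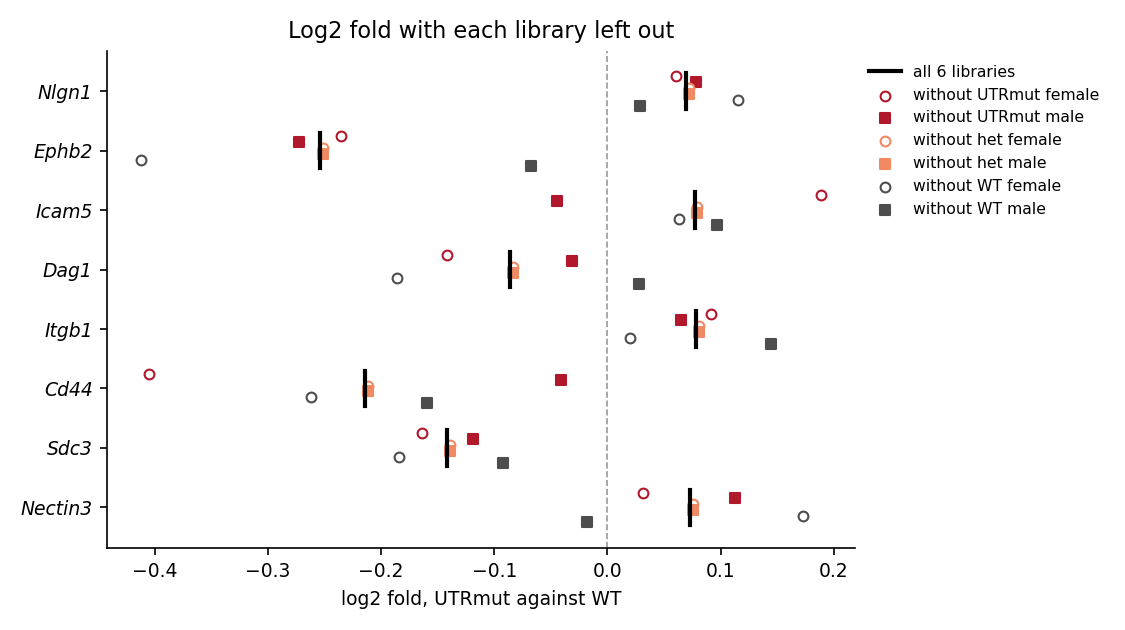
Log2 fold in UTRmut against WT of each gene with all 6 libraries (black bars) and with each library left out in turn (points, coloured by the genotype of the library left out). Without the WT male Dag1 moves to 0.03, Nectin3 to -0.02 and Ephb2 to -0.07, and without the UTRmut male Icam5 moves to -0.04.

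Between the sexes, with genotype in the model, 0 members passed and the log2 folds of females against males were -0.12 to 0.40 (smallest adjusted p 0.792 in edgeR, by Benjamini-Hochberg), and 0.0372% of all genes passed. No member had an unadjusted p under 0.05 there, against 6.99% of all genes tested. Over the 8 partner lists together 117 of 124 genes were tested. For UTRmut against WT, 50 of them were positive and 67 negative, with 4 at an unadjusted p under 0.05, and in het against WT 60 were positive and 57 negative, with 5 at such a p. By list, het against WT had 6 positive and 7 negative for EphB signalling, 5 and 11 for the neuroligin partners, 8 and 12 for the dystrophin complex, 4 and 8 for hyaluronan, 8 and 7 for the syndecans and 5 and 5 for the nectins, beside the ICAM and integrin lists given above. UTRmut against het had 4 positive and 9 negative for EphB signalling, 11 and 5 for the neuroligin partners and 11 and 9 for the dystrophin complex. It had 4 and 8 for hyaluronan, 9 and 6 for the syndecans and 4 and 6 for the nectins. In edgeR 0 of the 117 passed in UTRmut against WT or in het against WT, and DESeq2 called 0.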

How the data were processed

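The authors deposited raw read counts per Ensembl gene and library, without normalisation or pooling. The tools that the submitters' processing notes name are HTSeq 0.6.0, HISAT2, Trimmomatic 0.39 and GATK 4.2.3.0, and the build is GRCm38, without their roles. Strand setting, annotation release and filters: not given in the sources used here. Libraries were of total RNA, so unspliced RNA can add to counts. Names, positions and exon lengths came from GENCODE M21 (GRCm38), which held 55227 of 55487 identifiers; the others had 0.0162% of all counts.

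Genes were kept with filterByExpr by genotype (minimum count 10, total 15), scaled by trimmed mean of M-values (TMM) and tested in edgeR 4.0.16 (R 4.3.3) by the robust quasi-likelihood test, with all 6 libraries in each fit and Benjamini-Hochberg adjustment over all genes tested. The SE of a log2 fold is its size over the root of its F statistic. CPM divides counts by the TMM-scaled library size. The test script was checked on simulated counts. Alternatives were DESeq2 1.42.0, RLE (relative log expression) size factors, no filter, no robust option, each library left out, the replicate block, and the 2 groups alone. A count of 0 allows up to 3 counts, or 0.259 to 0.312 CPM; this covers counting error only.

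The members, lists and rules were chosen with earlier results of these data known. The text names all members, Mmp9, the paralogs, the 2 genes of each list with the smallest p in UTRmut against WT, any list gene that passed, and the 3 genes most like the member with the smallest p. Protein sequences were not used here.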

Additional observations from a re-analysis of the deposited data

Results flagged for a closer look

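How the change per mutant allele differed between the sexes was past the threshold for 194 genes of the whole table, 144 with a positive and 50 with a negative value of the signed change in females minus that in males (edgeR, Benjamini-Hochberg), with 24 to 736 genes when 1 library was left out. Each combination of sex and genotype is 1 library, so this test has 2 residual degrees of freedom. Sex and the replicate number cannot be told apart in it. None of the 8 substrate genes was among the 194 genes. Of their 117 partner genes tested 2 passed, where 1.2% of all genes tested did. These were the dystroglycan ligand Hspg2 (signed log2 difference, females minus males, of 0.98) and the link protein gene Hapln4 (0.50). Both were higher in UTRmut than in WT among females and lower among males. In both genes the WT male was the highest library and the UTRmut female the second highest. Hspg2 did not pass without either WT or either UTRmut library (adjusted p = 0.0698 to 0.590), and Hapln4 did not pass without either WT library or the UTRmut female (0.389 to 0.893), in DESeq2 (0.248) or in edgeR without the robust option (0.0706). DESeq2 gave no adjusted p for Hspg2. The WT male also had the highest sums of choroid plexus, meningeal, and endothelial and mural markers (103 CPM for the last, against 71.4 to 88.6 in the other libraries), whose part in these values was not tested. Rgs5 gave 49.9 CPM of the last sum in the WT male. Pecam1, Flt1 and Pdgfrb were also highest there, while Cldn5 was highest in the het male and Ly6c1 in the UTRmut female.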

How the results depend on the processing

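In every alternative tried 0 of the 8 substrate genes passed in any comparison, with a smallest adjusted p of 0.276 over 535 fits of 48 member values. Cd44 had 9 of these fits in the difference between the sexes, where each other member had 10. The missing fit gave no adjusted p, so it does not bear on passing. The sign of 20 of the 48 values held throughout. The sign of the others turned with 1 library left out, and that of Sdc3 in females against males also without the filter on low counts (-0.0093). For those values the log2 folds with 1 library left out had the following ranges. In UTRmut against WT they were -0.19 to 0.028 for Dag1, -0.044 to 0.19 for Icam5 and -0.018 to 0.17 for Nectin3. In het against WT they were -0.19 to 0.021 for Dag1, -0.068 to 0.019 for Nlgn1, -0.0068 to 0.027 for Icam5, -0.62 to 0.36 for Cd44, -0.026 to 0.20 for Itgb1, -0.15 to 0.19 for Ephb2 and -0.19 to 0.0056 for Nectin3. In UTRmut against het they were -0.052 to 0.058 for Dag1, -0.055 to 0.18 for Icam5, -0.57 to 0.41 for Cd44 and -0.12 to 0.11 for Itgb1. For the change per allele they were -0.080 to 0.013 for Dag1 and -0.017 to 0.083 for Icam5. In females against males they were -0.059 to 0.10 for Dag1, -0.13 to 0.0016 for Icam5, -0.022 to 0.047 for Sdc3, -0.19 to 0.086 for Ephb2 and -0.024 to 0.14 for Nectin3. For the difference between the sexes they were -0.13 to 0.062 for Nlgn1, -0.20 to 0.0012 for Icam5, -0.21 to 0.67 for Cd44, -0.083 to 0.18 for Itgb1, -0.14 to 0.27 for Sdc3, -0.18 to 0.49 for Ephb2 and -0.32 to 0.22 for Nectin3. Also reversed with 1 library left out were Ezr (-0.065 to 0.39) and Cbln2 (-0.021 to 0.44) in UTRmut against WT and Mmp9 in UTRmut against het (-0.24 to 0.64).

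Counts over the whole table moved more. In UTRmut against WT 1 gene passed, with 27 without the filter, 8 in DESeq2, 3 with the 2 groups alone and 0 to 103 with 1 library left out (103 without the WT male). In het against WT 2 passed, with 13 without the filter, 1 with the 2 groups alone and 1 to 30 with 1 library left out (30 without the WT male). In UTRmut against het 2 passed, with 28 without the filter, 7 in DESeq2, 1 without the robust option, 10 with the 2 groups alone and 0 to 10 with 1 library left out. For the change per allele 0 passed, with 19 without the filter, 4 in DESeq2 and 0 to 36 with 1 library left out (36 without the WT male). Between the sexes 6 passed, with 92 without the filter, 10 in DESeq2 and 5 to 197 with 1 library left out. In the difference between the sexes 194 passed, with 600 without the filter, 77 in DESeq2, 121 without the robust option and 24 to 736 with 1 library left out. The cause of these moves was not tested.

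The labels give no pairing beyond sex, and deviations from the group means correlated at 0.196 between UTRmut and het, 0.0802 between UTRmut and WT and 0.295 between het and WT. With the replicate block (sex) 4 genes passed in UTRmut against WT, 3 in het against WT and 5 in UTRmut against het, and 0 members. Where a library was left out, the 1 remaining of its genotype was assumed to vary like the others. Mmp9, at 4 to 16 counts a library, and Cd44, at 36 to 64, had few counts.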
